A study of Mus musculus with 4 samples.

Results

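The genes described here encode the structural subunits of the mitochondrial oxidative phosphorylation complexes, measured in mouse mitral valve. They were taken by symbol: every probe set annotated to exactly 1 gene whose name begins with Nduf, Uqcr, Atp5, Sdha to Sdhd, or Cox followed by a digit from 4 to 8, with assembly factors and pseudogenes left out. This gave 79 of 12394 genes, measured by 150 of 22690 probe sets. Of the genes, 34 belong to complex I, 4 to complex II, 8 to complex III, 16 to complex IV and 17 to complex V. Total RNA from the valve had been hybridised to 4 one-colour oligonucleotide arrays. The mice differed at Fbn1, the gene of fibrillin-1, the glycoprotein of extracellular microfibrils. WT was the +/+ array and Hom the array homozygous for C1039G, an allele used in mice as a model of Marfan syndrome. The 2 Het arrays carried 1 mutant copy, and their labels name residue 1039 without the substituted amino acid, so they are treated here as carrying the Hom allele once. Strain, age, sex and the number of animals behind an array were not in the labels. WT and Hom had 1 array each, so a p-value rests on the spread between the 2 Het arrays alone. It covers no more than those hybridised samples and measures no spread within WT or Hom.

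Oxidative phosphorylation is the route by which mitochondria make most of a heart's ATP. Complex I accepts electrons from NADH and complex II from succinate, ubiquinone passes them to complex III, and cytochrome c passes them to complex IV, which reduces oxygen. Complexes I, III and IV pump protons across the inner membrane, and complex V, the ATP synthase, uses the return flow to make ATP. Nuclear genes, all of those described here, encode most of the subunits, and complex IV has isoforms of its smaller subunits that heart and skeletal muscle express in place of the ubiquitous forms. The mitral valve itself is built of interstitial cells, matrix and endothelium and is attached to muscle of the atrium and the papillary muscles.

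Values are intensities brought to a common array median, and sets of 4 are listed as WT, then Het replicate 1, then Het replicate 2, then Hom. A relative difference is a log2 difference between arrays minus the median of that difference over all 7317 genes kept, those with a mean intensity of at least 60.4. That median was -0.002 for Het replicate 1 minus WT, 0.19 for Het replicate 2 minus WT and -0.02 for Hom minus WT. A gene of Het replicate 2 at the intensity of WT therefore has a relative difference of -0.19. With 1 array for WT and 1 for Hom, the small number of arrays limits all precision. Of the 79 genes, 77 passed the filter on mean level, and 1 of these, Cox4i2, did so with arrays below it. Cox6b2, the testis form of a complex IV subunit, did not pass, with intensities of 22.5, 20.4, 48.3 and 20.1. Neither did Cox7c, another complex IV subunit, whose brighter probe set read 37.9, 43.0, 48.9 and 32.3.

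Het replicate 2 stood apart from the other arrays. The 33 cardiomyocyte markers, all of them kept and none at the floor of 19.0 on all arrays, had geometric mean intensities of 919.3, 1069, 559.6 and 947.7. Among them, Myom2 read 19.0, the floor value, on Het replicate 2. The 14 macrophage markers kept of 16 had means of 254.0, 235.5, 489.7 and 256.5, and the 2 erythroid markers kept of 7 had means of 334.6, 311.4, 1053 and 359.3. The 11 valve interstitial and fibroblast markers kept of 12 had means of 2918, 2409, 1966 and 2386, so markers of the labelled tissue were present on every array. The 10 endothelial markers had means of 543.0, 517.0, 381.5 and 455.7. Of 11 skeletal muscle markers, 3 were kept (means of 182.9, 134.3, 113.4 and 181.2) and 5 lay at the floor on all arrays, among them Myh1, Myh4 and Actn3. Of 11 adipocyte markers, 2 were kept (means of 221.5, 252.7, 131.8 and 271.2) and 4 lay at the floor on all arrays, Ucp1 and Adipoq included. The 3′ to 5′ intensity ratio of Actb was 3.04 on Het replicate 2 and 2.16 to 2.25 on the others, and that of Gapdh was 4.65 against 3.19 to 4.18. The 4 hybridisation controls had geometric means of 1415, 1610, 640.4 and 1080. In RNA from whole tissue, fewer cells of a type and less RNA per cell cannot be told apart. The part of these differences in the results below was not tested, and each result that rests on the Het arrays is given for each of them.

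Promoter sequences are shown first for 6 subunit genes whose values are described below, because they fall into contrasting patterns over the arrays. Cox6a1, Atp5g2, Atp5l and Ndufa8 were low on Het replicate 1 and high on Het replicate 2, and they were chosen for that order and for holding the NRF1 letters described below. Of the 14 subunit genes with that order, 5 hold those letters. In contrast, Cox7a1 and Cox8b, muscle isoforms of complex IV, were lowest on Het replicate 2. Each stretch is the 250 bases upstream of the gene's start in RefSeq's GRCm38.p6 annotation, written 5′ to 3′ on the gene's own strand. The stretches lie at chr5:115348959-115349208 (minus strand) for Cox6a1, chr15:102671048-102671297 (minus) for Atp5g2, chr9:44920743-44920992 (minus) for Atp5l, chr2:36049339-36049588 (minus) for Ndufa8, chr7:30183921-30184170 (plus) for Cox7a1 and chr7:140900447-140900696 (minus) for Cox8b. Capitals mark the letters GCATGCGC, the core that the factor NRF1 binds, CCGGAAG, the core bound by GABPA, and the E-box CAGCTG, each on either strand. NRF1 and GABPA are known activators of nuclear genes for respiratory subunits.
Cox6a1: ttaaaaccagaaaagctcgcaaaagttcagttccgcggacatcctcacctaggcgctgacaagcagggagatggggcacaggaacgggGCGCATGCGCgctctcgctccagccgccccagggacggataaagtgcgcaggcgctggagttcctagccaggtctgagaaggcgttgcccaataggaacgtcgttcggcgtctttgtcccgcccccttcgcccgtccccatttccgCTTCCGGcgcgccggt
Atp5g2: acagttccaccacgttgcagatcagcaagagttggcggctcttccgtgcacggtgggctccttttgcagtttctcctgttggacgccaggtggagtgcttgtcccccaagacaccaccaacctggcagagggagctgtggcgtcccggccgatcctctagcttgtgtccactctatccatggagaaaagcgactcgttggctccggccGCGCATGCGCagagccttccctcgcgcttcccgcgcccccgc
Atp5l: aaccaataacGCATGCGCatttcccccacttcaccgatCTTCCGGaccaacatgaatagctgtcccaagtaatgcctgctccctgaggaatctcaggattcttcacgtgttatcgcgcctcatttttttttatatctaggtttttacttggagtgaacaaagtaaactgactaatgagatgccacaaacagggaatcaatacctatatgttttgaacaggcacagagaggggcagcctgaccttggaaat
Ndufa8: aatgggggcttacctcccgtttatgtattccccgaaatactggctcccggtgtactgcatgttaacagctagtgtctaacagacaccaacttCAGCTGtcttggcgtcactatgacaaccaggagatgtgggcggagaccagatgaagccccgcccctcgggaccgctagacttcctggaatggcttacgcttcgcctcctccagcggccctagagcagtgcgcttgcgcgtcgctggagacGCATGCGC
Cox7a1: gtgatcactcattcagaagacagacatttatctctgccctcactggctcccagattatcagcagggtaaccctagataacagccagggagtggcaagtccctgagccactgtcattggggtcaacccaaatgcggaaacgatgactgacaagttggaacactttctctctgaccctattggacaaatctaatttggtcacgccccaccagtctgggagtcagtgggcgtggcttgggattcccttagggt
Cox8b: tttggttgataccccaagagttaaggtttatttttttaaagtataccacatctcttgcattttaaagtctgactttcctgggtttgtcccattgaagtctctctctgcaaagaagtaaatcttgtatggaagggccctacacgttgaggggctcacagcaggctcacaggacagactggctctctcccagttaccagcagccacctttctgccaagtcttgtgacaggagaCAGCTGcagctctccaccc
In Cox6a1 and Atp5g2 the NRF1 letters occur on both strands as overlapping matches, which gives the longer run of capitals.

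Across the 65 subunit genes with a promoter in the RefSeq table, 7 (10.8%) held the NRF1 letters, against 2.32% of 27025 promoters of the same length. These were Atp5g2, Atp5k, Atp5l, Cox6a1, Ndufa6, Ndufa8 and Sdhb. The GABPA letters occurred in 11 subunit promoters (16.9%), against 7.05% of all. The letters TCAAGGTCA, bound by the estrogen-related receptors, occurred in 1 (1.54%), that of Atp5g3, against 0.366%. The E-box occurred in 6 (9.23%) against 12.8%, and the TATA letters TATAAA in 6 (9.23%) against 13.0%. Matches to NRF1 and GABPA letters may lie in the same promoter, as they do in Cox6a1 and Atp5l. Of the 7 genes with the NRF1 letters, 5 had Het replicate 1 below and Het replicate 2 above WT, where 21.9% of all genes had that order. The median relative difference of Het replicate 2 minus Het replicate 1 over the 7 was 0.77. Among the 56 other kept subunit genes with a promoter it was -0.23. Genes outside the subunits that hold these letters were not compared in this way. For Hom minus WT the medians were -0.007 with and -0.005 without those letters. The genes with the GABPA letters had a Het replicate 2 minus Het replicate 1 median of -0.20, and those without it -0.19. A match describes letters and not a bound site, and the promoters were examined after the values were known.

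Hom and WT differed little in the subunit genes as a group. The median relative difference of Hom minus WT over the 77 genes was -0.008, with the middle of the genes between -0.17 and 0.14 (quartiles), and 36 genes lay above the median of all genes and 41 below it. In limma's fit across all genes 0 subunit genes passed an adjusted p of 0.05 or an unadjusted p of 0.05. Over all genes kept, limma called 0 (0.0%) after adjustment and 32 (0.437%) before it. That fit took its spread from the Het pair, and its median standard error for the subunit genes was 0.541 log2 units. A difference near 1.5-fold could not have passed either p threshold, so the lack of calls does not measure likeness. On the probe sets used, no subunit gene was at least 1.5-fold higher in Hom, where 3.64% of all genes were. On the same sets 1, Cox8a, was at least 1.5-fold lower, where 2.91% were. When a gene's probe sets were averaged, or those ending in _s_at or _x_at were dropped, 0 genes passed that limit in either direction. With quantile normalization 1 passed it, but as a gain, Atp5a1 at 0.64, with Cox8a at -0.55. A further Cox6c probe set read 1093, 643.3, 1431 and 614.9, with Hom at -0.805 from WT, past that limit. The set used for Cox6c had Hom at 0.165. The standard deviation of the log2 difference over the subunit genes was 0.228, against 0.32 over all genes. By complex the medians were -0.02 for complex I, 0.15 for complex II, 0.19 for complex III, 0.02 for complex IV and -0.04 for complex V. The complex III value was 0.06 when a gene's probe sets were averaged and -0.02 when those ending in _s_at or _x_at were dropped.

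**Figure D1:**
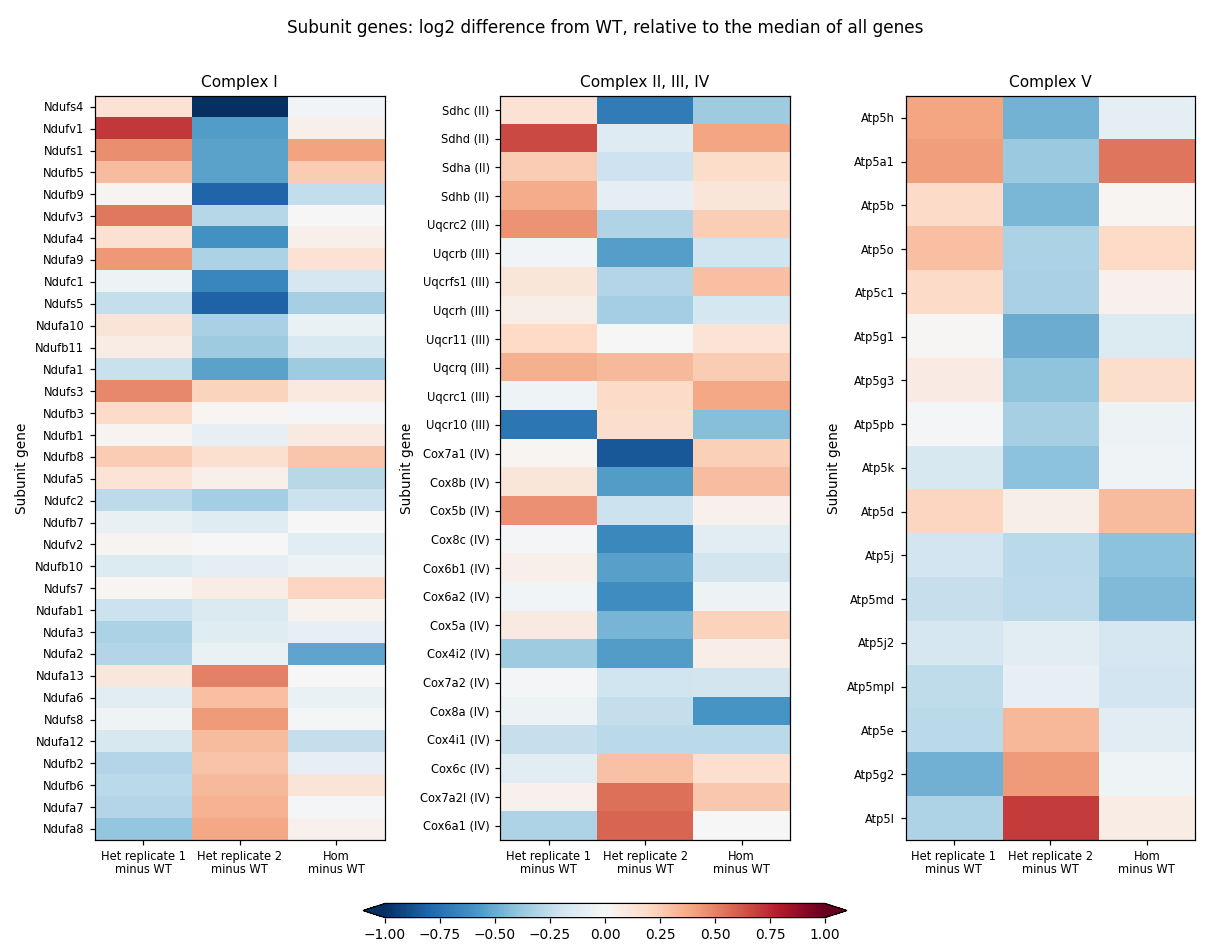
Relative log2 difference from WT of each of the 77 subunit genes on the Het replicate 1, Het replicate 2 and Hom arrays, by complex and sorted within each complex by Het replicate 2 minus Het replicate 1. Red is above WT and blue below it, and the colour scale ends at -1 and 1. The Het columns often take opposite colours, and the Hom column is pale, with Cox8a at -0.59 and Atp5a1 at 0.54 as its ends.

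In complex I the subunits of the electron-carrying arm took their highest and lowest values mostly on the Het arrays. Ndufv1 encodes the subunit that binds NADH and flavin, and its intensities were 1271, 2075, 983.0 and 1293. Het replicate 1 was the highest and Het replicate 2 the lowest, with relative differences from WT of 0.71 and -0.56, while Hom lay at 0.05. Its other probe sets had the same order of the Het arrays by less: 0.29 and 0.12 for Het replicate 1 minus WT, and -0.35 and -0.18 for Het replicate 2 minus WT. Ndufs1, the largest iron-sulfur subunit, read 589.3, 812.6, 464.6 and 765.2. Het replicate 1 and Hom were both above WT (0.47 and 0.40) and Het replicate 2 below it (-0.53). Ndufs3, which helps form the arm that reduces ubiquinone, read 498.2, 694.0, 664.2 and 524.5. Both Het arrays lay above WT (0.48 and 0.22) and Hom at 0.10, and Ndufs3 had the lowest p of any subunit gene for Het against WT, with a limma difference of 0.45 (SE 0.461), an unadjusted p of 0.347 and an adjusted p of 1.0. Ndufs7, an iron-sulfur subunit next to the ubiquinone site, read 635.4, 642.8, 761.8 and 725.0, a relative difference of 0.21 for Hom, and its other probe set gave -0.04. Ndufs8, the other iron-sulfur subunit there, read 1430, 1392, 2194 and 1396, with Het replicate 2 the highest at 0.43. The 6 core subunits measured, Ndufv2 included, had median relative differences of 0.24 for Het replicate 1, 0.03 for Het replicate 2 and 0.07 for Hom.

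The 28 other subunits are accessory and surround the core. Their medians were -0.06 for Het replicate 1, -0.12 for Het replicate 2 and -0.04 for Hom. Ndufa2 and Ndufa1 were the lowest of complex I in Hom. Ndufa2, a small subunit of the NADH-oxidising part, read 1347, 1100, 1471 and 919.2, with Hom at -0.53 from WT. Ndufa1, in the membrane arm, read 5180, 4435, 4088 and 3983, and all mutant arrays were below WT, by -0.22, -0.53 and -0.36 in the order of the arrays. Ndufb8, in the membrane arm too, read 886.1, 1056, 1131 and 1056, and all mutant arrays were above WT, by 0.26, 0.16 and 0.28.

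Ndufs4, a subunit needed for a stable NADH-oxidising part, had the largest fall on Het replicate 2, from 459.6, 507.7 and 444.5 on WT, Het replicate 1 and Hom to 210.7. Its relative difference of -1.32 made it the only subunit gene at least 2-fold below WT on that array, where 3.02% of all genes were. The other Ndufs4 probe sets were dimmer and did not have that fall: 1 read 76.9, 51.6, 63.7 and 73.6, and 1 read 124.3, 79.8, 138.5 and 104.2. Ndufs5, on the outer face of the membrane arm, read 248.2, 210.0, 161.9 and 193.9, with Het replicate 2 the lowest at -0.81. Ndufa13, also known as GRIM-19, moved the other way and read 2508, 2710, 4056 and 2467, with Het replicate 2 at 0.50. Ndufa8, whose promoter holds the NRF1 letters, read 827.7, 631.8, 1233 and 840.5. Its Het arrays lay on opposite sides of WT, at -0.39 and 0.38, and Hom was at 0.05. Ndufb5 read 930.7, 1160, 731.3 and 1089 on the probe set used and 954.1, 749.2, 1060 and 1043 on the other, so its Het arrays changed order with the probe set. Ndufa4, named for complex I but now placed with complex IV, read 1222, 1359, 915.3 and 1246.

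In complex II the Het arrays split the same way for every gene on the probe sets used. Sdha, the flavoprotein that oxidises succinate, read 1122, 1337, 1108 and 1253. Sdhb, the iron-sulfur subunit, read 1895, 2448, 2032 and 2023. Sdhd, a membrane anchor, read 623.9, 983.8, 650.8 and 804.6. For these, Het replicate 1 was the highest array, and the relative differences of Het replicate 1 minus WT were 0.26 for Sdha, 0.37 for Sdhb and 0.66 for Sdhd. Sdhc, the other membrane anchor, read 401.3, 442.5, 282.6 and 308.3, with Het replicate 1 at 0.14, Het replicate 2 at -0.70 and Hom at -0.36. A further Sdhc probe set gave 0.17, -0.51 and -0.05. For Sdha and Sdhd the other probe sets put Het replicate 2 slightly above WT, at 0.04 and 0.07. The Sdhd one was dim, at 59.9, 84.7, 71.8 and 67.2. On the probe sets used, and relative to all genes, the 4 genes lay above WT on Het replicate 1 (median 0.31) and below it on Het replicate 2 (median -0.17), and Hom was above WT for 3 of them.

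In complex III, on the probe sets used, Hom was above WT for the large core proteins and the Rieske protein, and below it for some of the small subunits. Uqcrc1, a core protein, read 604.4, 585.4, 789.6 and 778.4, with Hom at 0.39. Uqcrc2, its partner, read 1717, 2337, 1589 and 2004, with Hom at 0.25 and Het replicate 1 at 0.45, and its other probe set gave -0.009 and 0.27. Uqcrfs1, the Rieske iron-sulfur protein that passes electrons towards cytochrome c, read 1138, 1234, 1059 and 1377, with Hom at 0.30. The last was the only one of these with Hom highest. Uqcrb, a small subunit at the ubiquinone site, read 8178, 8022, 6357 and 7005, with WT the highest array and Hom at -0.20. Uqcrq read 664.5, 848.3, 951.9 and 781.1, and all mutant arrays were above WT, by 0.35, 0.33 and 0.26. Those values rest on 1 probe set. Another 2 probe sets, both dim, gave -0.49, -0.36 and 0.02, and 0.21, -0.23 and -0.21, in the same order. Uqcr10 read 589.5, 357.3, 760.8 and 432.8 on the probe set used, which put Het replicate 1 at -0.72 and Hom at -0.42. Its dimmer probe sets gave 0.18 and 0.11 for Het replicate 1 and 0.36 and 0.01 for Hom, so the low values rest on 1 probe set. Uqcr11 had relative differences of 0.20, -0.003 and 0.13 in array order.

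**Figure D2:**
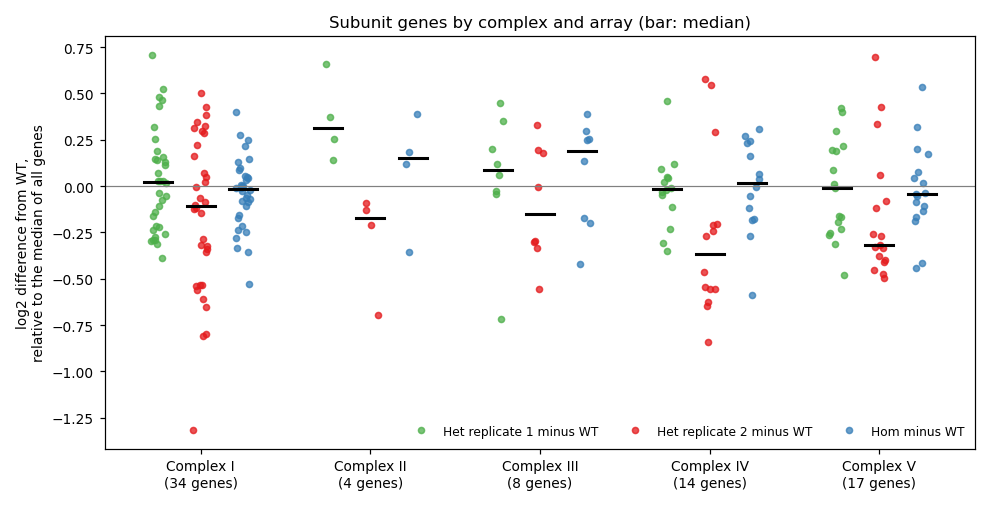
Relative log2 difference from WT of the subunit genes of each complex (34, 4, 8, 14 and 17 genes), with 1 point a gene, 1 colour an array and a bar at the median. With the filter on mean level used here, the Het replicate 2 median is the lowest of the 3 in each of the 5 complexes, from -0.11 in complex I to -0.36 in complex IV. With no filter it was 0.08 in complex I, 0.02 in complex II and 0.04 in complex III. Hom medians lie between -0.04 and 0.19.

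In complex IV the catalytic core is encoded by mitochondrial DNA, and the nuclear genes measured here encode the subunits around it. Cox4i1, the ubiquitous form of the largest nuclear subunit, read 3118, 2658, 2956 and 2544. WT was its highest array, with relative differences of -0.23, -0.27 and -0.27. Cox4i2, the form known from lung and low oxygen, was dim at 69.0, 54.0, 53.5 and 71.1. Cox5a, a subunit on the matrix side, read 2341, 2494, 1939 and 2702, with Hom at 0.23. Its other probe sets gave 0.04 and 0.04 for Hom and -0.07 and 0.48 for Het replicate 2, where the set used gave -0.46. Cox5b, which binds zinc, read 4689, 6434, 4623 and 4744, with Het replicate 1 at 0.46. Cox6b1 read 5680, 5876, 4442 and 4930, with Het replicate 2 at -0.55, but its other probe set read 1853, 1878, 2319 and 1850, with Het replicate 2 at 0.13. Cox7a2l, which joins complexes III and IV into supercomplexes, read 1324, 1363, 2210 and 1571, with Het replicate 2 at 0.55 and Hom at 0.27. Its other probe sets gave 0.26 and 0.33 for Het replicate 2 and -0.03 and 0.18 for Hom.

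The muscle and ubiquitous forms of 3 complex IV subunits did not move together. Cox6a2, the muscle form, read 1354, 1324, 1004 and 1285, and Cox6a1, its ubiquitous partner, read 2488, 2006, 4243 and 2435. Cox6a2 was lowest on Het replicate 2 (-0.62 from WT) and Cox6a1 highest (0.58). A further Cox6a1 probe set read 823.9, 618.1, 1618 and 759.7, with Het replicate 2 again the highest and Het replicate 1 the lowest. Cox7a1, a muscle form, read 99.3, 100.6, 63.1 and 115.4, and Cox7a2, its partner, read 5434, 5386, 5393 and 4714. Cox8b, a muscle form, read 156.5, 170.1, 121.5 and 190.9, and Cox8a, its partner, read 1232, 1189, 1191 and 806.9. For Cox7a1 and Cox8b, Hom was the highest array and Het replicate 2 the lowest. For Cox7a2 and Cox8a, Hom was the lowest on the probe sets used. A further Cox7a2 probe set read 1847, 1425, 1838 and 1633, with Het replicate 1 the lowest. Its relative differences from WT were -0.37, -0.20 and -0.15 in array order.

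The difference of each muscle form minus that of its partner compares changes and not levels. For Het replicate 2 minus WT it was -1.20 for Cox6a2, -0.64 for Cox7a1 and -0.32 for Cox8b. For Het replicate 1 minus WT it was 0.28, 0.03 and 0.17 in the same order. For Hom minus WT it was -0.04, 0.42 and 0.90, and for Hom minus the Het mean 0.42, 0.73 and 0.97. The value of 0.90 rests on 1 probe set of Cox8a, of the kind that can bind several transcripts: the other bright Cox8a probe set read 555.8, 727.1, 631.8 and 547.1, a relative Hom minus WT difference of 0.001. Cox8a had the lowest p of any subunit gene for Hom against WT, with a limma difference of -0.61 (SE 0.532), an unadjusted p of 0.269 and an adjusted p of 1.0. On Het replicate 2, relative to all genes, all cardiomyocyte markers but Sln (1.49) and Myl7 (0.72) also lay below WT, 31 of 33 (median -0.93). So did all 11 interstitial and fibroblast markers kept (median -0.89) and all 10 endothelial markers (median -0.59), while 12 of 14 macrophage markers lay above it (median 0.59). The part of those cells in the isoform differences was not tested.

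**Figure D3:**
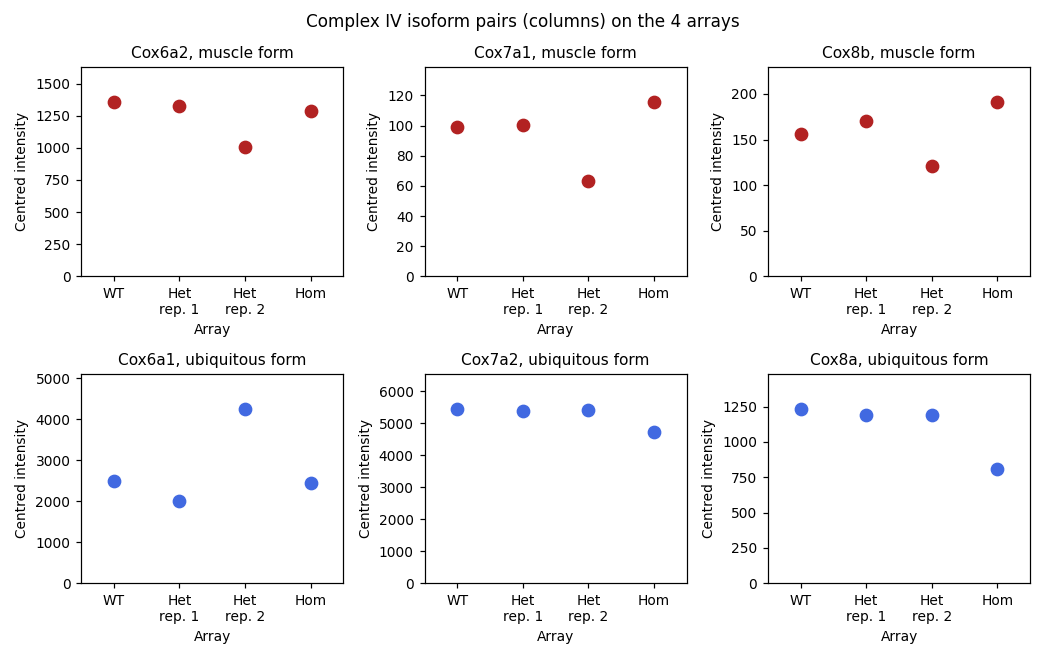
Centred intensity of the muscle forms Cox6a2, Cox7a1 and Cox8b (top row) and of their ubiquitous partners Cox6a1, Cox7a2 and Cox8a (bottom row), 1 point an array, each panel with its own linear axis from 0. All 3 muscle forms are lowest on Het replicate 2, Cox6a1 is highest there at 4243, and Cox8a is lowest on Hom at 806.9.

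In complex V, on the probe sets used and relative to all genes, 13 of 17 genes lay below WT on Het replicate 2. The other 4 (Atp5d, Atp5e, Atp5g2 and Atp5l) lay above it. By construction, as many of all genes lie above as below. At centred intensities, Atp5j2 (3472 on WT, 3658 on Het replicate 2) and Atp5mpl (803.0 and 867.0) were below WT only after the median of all genes was subtracted. The centring itself had shifted Het replicate 2 by 0.193 log2 units and WT by -0.045, so their side before that subtraction depends on the scaling. Further probe sets of Atp5j2 (0.36) and Atp5k (0.39 and 0.35) lay above WT. Those of Atp5a1, Atp5c1, Atp5h, Atp5o and Atp5pb lay below it. Atp5a1, the alpha subunit of the head, read 2657, 3553, 2338 and 3790, and Atp5b, the beta subunit that holds the catalytic sites, read 3081, 3511, 2567 and 3069. For both, Het replicate 2 was the lowest array, with relative differences from WT of -0.38 and -0.45. Atp5a1 had the highest Hom minus WT difference of any subunit gene, 0.54. However, its other bright probe set read 2132, 2753, 1641 and 2156, a difference of 0.04. Atp5c1, the gamma subunit of the rotor, read 4523, 5169, 4113 and 4577. Atp5d, the delta subunit, read 1775, 2062, 2115 and 2177, and all mutant arrays were above WT, by 0.22, 0.06 and 0.32. Its other probe set gave -0.09, 0.16 and 0.24. The 5 head and stalk subunits alpha to epsilon had a median of 0.20 on Het replicate 1, -0.33 on Het replicate 2 and 0.04 in Hom.

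The membrane ring of complex V is built of 1 protein encoded by 3 genes. Atp5g1 read 803.7, 809.0, 649.8 and 718.8, and Atp5g3 read 4602, 4875, 3985 and 5112. Both were lowest on Het replicate 2, at -0.50 and -0.40 from WT. Atp5g2 read 1041, 744.7, 1598 and 994.1, and its Het replicate 2 value was the highest, at 0.43, while Het replicate 1 was the lowest, at -0.48. The ring genes therefore took opposite orders of the Het arrays. Atp5l, the small g subunit, read 267.1, 215.1, 494.2 and 277.0. It was the only subunit gene at least 1.5-fold above WT on Het replicate 2 (0.70), and Hom was at 0.08. Atp5j, of the peripheral stalk, read 2497, 2182, 2366 and 1844, and Atp5md, a small membrane subunit, read 512.0, 435.0, 488.0 and 370.5. These were the lowest complex V genes in Hom, at -0.41 and -0.44, and WT was the highest array for both. Atp5k, the small e subunit, read 2792, 2491, 2397 and 2675 on the probe set used, while a probe set of like brightness read 2349, 1748, 3509 and 1970, so the side of Het replicate 2 changed with the probe set.

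Het against WT was compared array by array. Het replicate 1 was close to WT in the subunit genes: the median relative difference was 0.02, 41 of 77 genes were above, 2 (Ndufv1 and Sdhd) were at least 1.5-fold higher, where 4.61% of all genes were, and 1 (Uqcr10) was at least 1.5-fold lower, where 5.22% were. Het replicate 2 was lower: the median was -0.24, 54 of 77 genes were below, 9 (11.7%) were at least 1.5-fold lower, where 12.1% of all genes were, and 1 (1.3%) was at least 1.5-fold higher, where 11.7% were. Before the median of all genes was subtracted, the Het replicate 2 median was -0.05 at centred intensities. It was -0.287 with scaling as deposited and -0.218 with quantile normalization. With no filter on mean level the relative median was -0.02. The share of lower genes was near that of all genes, and few subunit genes were higher. In limma's fit of Het against WT, 0 subunit genes passed an adjusted or an unadjusted p of 0.05. Over all genes limma called 1 (0.0137%) after adjustment and 84 (1.15%) before it, and the 1 was not a subunit gene. The median standard error of the subunit genes in that contrast was 0.469 log2 units.

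Relative to the median of all genes, the Het arrays lay on the same side of WT for fewer subunit genes than they split. Both lay above WT for 9 (11.7%), where 28.1% of all genes did, and both below for 22 (28.6%), where 28.1% did. The 9 were Ndufa5, Ndufa13, Ndufb3, Ndufb8, Ndufs3, Ndufs7, Uqcrq, Cox7a2l and Atp5d. No subunit gene had both Het arrays at least 1.5-fold above WT, where 1.28% of all genes had, or both at least 1.5-fold below, where 1.56% had. Het replicate 1 was above and Het replicate 2 below WT for 32 (41.6%), where 21.9% of all genes were. These 32 hold all 4 complex II genes, 12 of complex I, 4 of complex III, 5 of complex IV and 7 of complex V. The opposite order held for 14 (18.2%), where 21.9% of all genes had it: Ndufa6, Ndufa7, Ndufa8, Ndufa12, Ndufb2, Ndufb6, Ndufs8, Uqcr10, Uqcrc1, Cox6a1, Cox6c, Atp5e, Atp5g2 and Atp5l. Both Het differences share the WT array.

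Between the Het arrays, 22 subunit genes (28.6%) were at least 1.5-fold lower on Het replicate 2 than on Het replicate 1, where 13.5% of all genes were. Another 8 (10.4%) were at least 1.5-fold higher, where 13.3% were. The median was -0.20 and the values ran from -1.46 for Ndufs4 to 1.01 for Atp5l. Both directions occurred within complexes I, III, IV and V, and in complex II all 4 genes were lower on Het replicate 2 (median -0.63).

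A comparison with no shared array was made by setting Het replicate 1 minus WT against Het replicate 2 minus Hom. Across the 77 subunit genes the Pearson correlation was -0.54 and the Spearman correlation -0.56, against -0.05 and -0.07 across all 7317 genes. Within complex V (17 genes) they were -0.87 and -0.88, within complex I (34 genes) -0.49 and -0.51, and within complex IV (14 genes) -0.28 and -0.41. With the partners exchanged, Het replicate 1 minus Hom against Het replicate 2 minus WT gave -0.43 and -0.39 for the subunit genes and -0.03 and -0.06 for all genes. Hom minus WT against Het replicate 2 minus Het replicate 1 gave -0.18 and -0.18. Genes are not independent replicates, and the points share the same 4 arrays with their RNA, depth of signal and cell makeup. The genes that were high on 1 Het array thus tended to be low on the other, and the values describe these arrays alone.

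**Figure D4:**
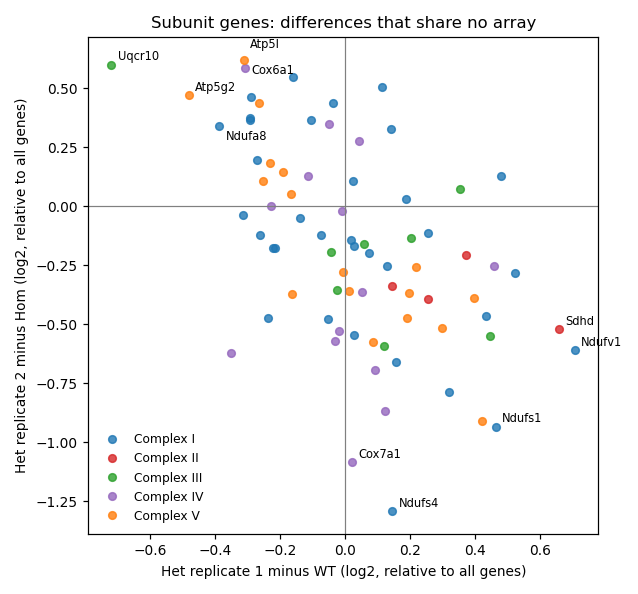
Each point is 1 of the 77 subunit genes, coloured by complex, with the relative log2 difference of Het replicate 1 minus WT on the x axis and of Het replicate 2 minus Hom on the y axis. The points run from upper left (Uqcr10, Atp5g2, Atp5l, Cox6a1) to lower right (Ndufv1, Ndufs1, Sdhd), with a Pearson correlation of -0.54.

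Hom against Het depended on which Het array was used. The median relative difference of Hom minus the Het mean was 0.06, and 44 of 77 genes were above. Against Het replicate 1 alone it was -0.07, with 0 genes at least 1.5-fold higher (4.93% of all genes) and 1, Ndufv1, at least 1.5-fold lower (3.81%). Against Het replicate 2 alone it was 0.18, with 11 higher (12.6%) and 3 lower (11.5%). Against the mean, 1 gene, Cox7a1, was at least 1.5-fold higher, where 4.74% of all genes were, and 0 were lower, where 3.49% were. Cox7a1 was dim, and Hom lay 0.22 above Het replicate 1 and 1.08 above Het replicate 2. Hom lay above both Het arrays for 18 genes (23.4%) and below both for 13 (16.9%), where 28.0% of all genes did in each direction. The 18 include Atp5a1, Atp5d, Cox5a, Cox7a1, Cox8b, Uqcrc1 and Uqcrfs1, and the 13 include Atp5j, Atp5md, Cox4i1, Cox8a and Ndufa2. In limma's fit 0 subunit genes passed an adjusted or an unadjusted p of 0.05. Over all genes it called 0 (0.0%) after adjustment and 63 (0.861%) before it. Cox8a had the lowest p of the subunit genes, with a limma difference of -0.56 (SE 0.46), an unadjusted p of 0.242 and an adjusted p of 1.0.

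Many subunit genes had several probe sets, and their readings limit what can be said of single genes. In 41 genes with at least 2 bright probe sets, the median range of the relative difference over the probe sets of a gene was 0.23 for Hom minus WT, 0.31 for Het replicate 1 minus WT and 0.29 for Het replicate 2 minus WT. The median size of the difference itself over the subunit genes was 0.16, 0.19 and 0.33. For Hom minus WT the spread within a gene was therefore larger than the difference typical of the group. All probe sets of a gene lay on the same side of WT for 17 of 41 genes in Hom, 21 on Het replicate 1 and 28 on Het replicate 2. Between the Het arrays the median range was 0.51 against a median size of 0.47, and probe sets differed by over 1 log2 unit for Atp5k, Cox5a, Ndufb5, Ndufs4 and Ndufv2. Ndufs8, with 6 bright probe sets, ranged over more than 1 log2 unit for Het replicate 1 minus WT, from -0.67 to 0.41.

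Other mitochondrial genes were set beside the subunits through 6 lists, and limma called 0 of their genes in any contrast. In the TCA cycle, which supplies NADH and succinate, 16 of 17 genes were kept. Their medians were 0.17 for Het replicate 1 minus WT, -0.33 for Het replicate 2 minus WT and 0.11 for Hom minus WT. In fatty acid oxidation, the main fuel route of the adult heart, 17 of 18 genes were kept, with medians of 0.34, -0.34 and 0.20. There 15 of 17 genes lay above the median of all genes in Hom, among them Slc25a20, the carnitine carrier (307.6, 516.2, 551.3 and 498.3), and Acadm, a dehydrogenase of medium-chain acyl-CoA (680.0, 1133, 462.2 and 835.9). Among the mutant arrays, both medians were highest on Het replicate 1 and lowest on Het replicate 2, as in complex II. That order was not particular to complex II. Complexes I and V, the carriers and biogenesis regulators below and the cardiomyocyte markers (0.18, -0.93 and 0.04) had it too. In complexes III and IV, Hom was the highest.

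Cytochrome c, carriers and energy transfer proteins (11 of 12 kept) had medians of 0.03, -0.47 and -0.03. Ckmt2, the creatine kinase of muscle mitochondria, read 413.6, 594.0, 126.6 and 568.9, and Cyc1, the cytochrome of complex III outside the symbol rule, read 1807, 2217, 1939 and 2561. Assembly factors (29 of 43 kept), which build the complexes without staying in them, had medians of 0.03, -0.02 and 0.08. Mitochondrial ribosomal proteins (72 of 74 kept) went the other way on Het replicate 2, with medians of 0.04, 0.22 and -0.008, and 50 of 72 lay above the median of all genes there. Regulators of mitochondrial number (11 of 14 kept) had medians of -0.007, -0.10 and -0.05. Among them Ppargc1a, the coactivator of respiratory genes, read 108.6, 132.8, 44.0 and 103.5, and Nrf1 read 138.9, 144.5, 160.4 and 132.0.

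**Figure D5:**
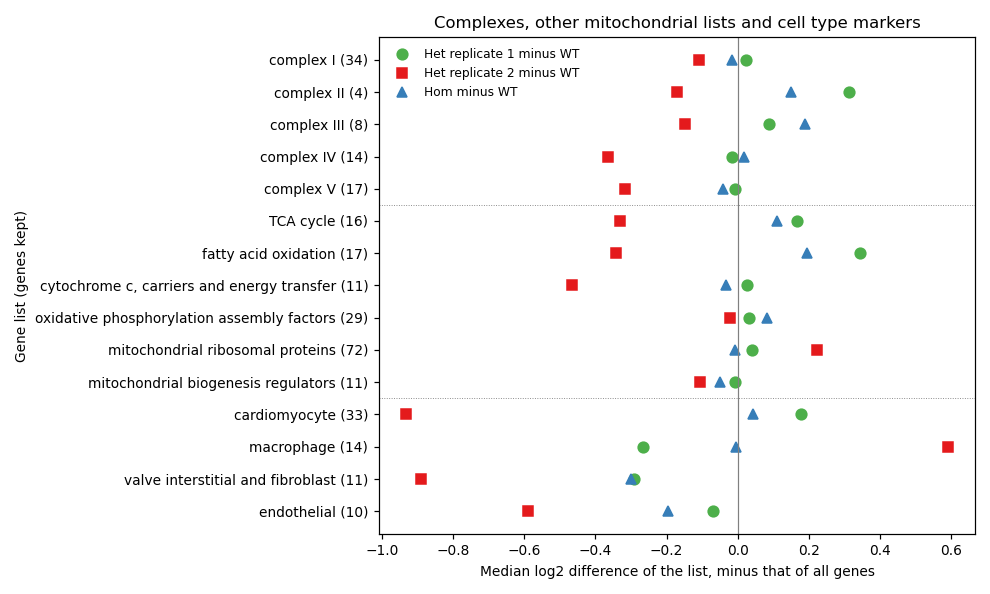
Median relative log2 difference from WT of the subunit genes by complex, of 6 other mitochondrial lists and of 4 lists of cell type markers, 1 point an array, with the number of genes kept in brackets. On Het replicate 2 the cardiomyocyte median is -0.93, the 5 complexes lie between -0.36 and -0.11, mitochondrial ribosomal proteins are at 0.22 and macrophage markers at 0.59, while Hom medians of the mitochondrial lists lie between -0.05 and 0.20.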

How the data were processed

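Expression was measured in 4 samples of mouse mitral valve RNA, 1 array each. The deposited values are intensities on a linear scale for 22690 probe sets, and from the values the authors had scaled each array to a trimmed mean of 150.1 (2% left out at each end). The software that made them is not given in the sources used here. Deposited medians were 63.7 (WT), 64.5 (Het replicate 1), 54.0 (Het replicate 2) and 65.5 (Hom), so arrays were shifted to a common median before a floor at the 25th percentile (an intensity of 19.0) and the log2 transform.

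Probe sets were named by the platform annotation: 20393 had 1 gene, 691 several and 1606 none, and 64 control probe sets were left out. Of the probe sets with 1 gene, 20364 had a gene identifier that matched RefSeq's GRCm38.p6 table. Probe sets with several genes, 8 of them naming a subunit (Ndufb4, Ndufa11 and Ndufs6 included), were outside the rule. A gene was kept if its mean reached the median probe set, and it was represented by its brightest probe set on average. Of the 77 subunit probe sets used, 17 end in _s_at or _x_at and can bind related transcripts. Only 82 values were identical between the Het arrays, which are therefore separate hybridisations.

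The test was limma 3.58.1 (R 4.3.3) across all genes kept. It fitted 3 groups, left 1 residual degree of freedom, that of the Het pair, and adjusted p-values by Benjamini-Hochberg over all genes (threshold 0.05). The fit of Hom against WT was tested on simulated data for 7317 genes: of 200 raised by 3 log2 units it called 196, and of 7117 unchanged it called 32. The raised genes changed by far more than the largest Hom minus WT difference of a subunit gene on the probe sets used, -0.59 for Cox8a. All simulated noise came from a shared pool of Het differences. The calls therefore do not measure power for differences of the size described here. Unchanged genes made up a larger share of the calls than the 0.05 threshold, so the fit did not hold that rate in the simulation. The 1.5-fold limit and the correlations carry no test. The labels give the Het replicate numbers, which pair nothing.

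Genes named with values were, in each complex, the 2 highest and 2 lowest in Hom minus WT and in the Het mean minus WT, the core subunits, the isoform sets, genes not kept and those whose probe sets differed by over 1 log2 unit. Ndufa8, Cox6c and genes of the other mitochondrial lists (such as Ckmt2 and Ppargc1a) were chosen after their values were seen. The members and lists were chosen with earlier results of these data known. Alternatives were quantile normalization, scaling as deposited, no floor, no filter on level or one at the 75th percentile, averaging the probe sets of a gene, no _s_at or _x_at probe sets, each Het array left out, a moderated prior with trend and a 2-fold limit. Plots were made in Python 3.11.15 with matplotlib 3.10.9.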

Additional observations from a re-analysis of the deposited data

How the results depend on the processing

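No subunit gene was called by limma under any alternative. Over all genes, Het against WT had 1 call, 4 with quantile normalization and 0 with scaling as deposited, no filter, the mean of all probe sets or no _s_at and _x_at probe sets. Hom against Het had 0 calls, 4 with quantile normalization and 1 with the filter at the 75th percentile or with trend and robust. The count of subunit genes at least 1.5-fold apart in Hom minus WT was 1 (Cox8a), and 0 with the 75th percentile filter, the mean of all probe sets, no _s_at and _x_at probe sets or a 2-fold limit. With quantile normalization it was also 1, but higher (Atp5a1) and not lower. At 2-fold the Het replicate 1 count was 0 in place of 3, the Het replicate 2 count 1 in place of 10, and the count for Hom minus the Het mean 0 in place of 1, as it was with quantile normalization. Without Het replicate 1 that last count was 12 (9 higher, 3 lower) and without Het replicate 2 it was 1, and the median of the subunit genes was 0.18 and -0.07. The muscle minus ubiquitous median of Hom minus the Het mean was 1.16 with Het replicate 1 left out and 0.39 with Het replicate 2 left out. For Hom minus WT that median was 0.42, 0.18 with quantile normalization and -0.04 with the 75th percentile filter. The correlation of -0.54 between differences that share no array lay between -0.495 and -0.598 under the added settings, and that over all genes between -0.106 and -0.014.

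With no filter on mean level the Het replicate 2 minus WT median of the subunit genes was -0.02 in place of -0.24, that of complex I 0.082 and that of the biogenesis regulators 0.043, both reversed, and 22 genes in place of 14 had Het replicate 1 below and Het replicate 2 above WT. By construction that setting adds dim genes at the floor, and the median of all genes was 0.0 in place of 0.19. The Hom minus WT median was -0.022 for complex III with no _s_at and _x_at probe sets and -0.065 for assembly factors with the 75th percentile filter, both reversed. The cause was not tested. Those of limma's tests that leave out a Het array were not run, since no residual degree of freedom is left. No paired analysis was possible because WT and Hom have 1 array each and share fewer than 2 replicate numbers with Het. The settings on the Het arrays' opposite sides, the correlations and the medians of complexes and lists were chosen after seeing the data.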
